A study of Mus musculus with 9 samples.

Results

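Some stretches of chromatin in the mouse mammary epithelium were open to a similar, high degree whichever cell type was sorted. They were taken from a deposited ATAC-seq table of 124860 regions. A region was kept when its normalized signal was at least 100 in each of 6 libraries and when the largest of these 6 values was under 2 times the smallest. The 6 libraries were those of puberty and adulthood in 3 cell types, and the 3 pregnancy libraries took no part in the choice. The rule kept 7442 regions, or 5.96% of the table, which are called bright even regions here. Brightness and evenness at puberty and in adults are therefore given by the choice and are not results.

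The 9 libraries, 1 for each cell type and stage, came from luminal cells with oestrogen receptor (ER+ luminal), luminal cells without it (ER- luminal) and basal cells, at puberty, in adults and at mid pregnancy. The mice of all groups carried the genotype ERrtTA/TetOCre/rosaYFP, in which, as its name says, a tetracycline transactivator tied to the receptor gene drives Cre and a fluorescent reporter. No strain, age in weeks, number of mice or induction scheme was found in the labels, nor which marker set the ER+ gate. Each library was made from 100000 sorted cells. With 1 library per cell type and stage, no spread between animals can be measured. The table pairs its regions with neither coordinates nor genes, so the sorted types could not be checked against marker genes, and regions have running numbers only.

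ATAC-seq uses the Tn5 transposase to cut and tag DNA that is not covered by nucleosomes, and the number of tagged fragments over a region measures how open it is. In most tissues, regions open in every cell type are rich in promoters of widely used genes and in sites bound by the insulator protein CTCF, whereas enhancers tend to differ between cell types. Basal cells form the contractile outer layer of the mammary duct, ER+ luminal cells sense ovarian hormones, and ER- luminal cells hold the precursors of milk-secreting alveolar cells. Which of the bright even regions are promoters or CTCF sites was not analysed here.

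Bright even regions lay at the top of every library. Their median signal was 239, 277 and 276 in the ER+ luminal, ER- luminal and basal puberty libraries. In the adult libraries it was 210, 232 and 267, and in the pregnancy libraries 176, 217 and 172, in the same order of cell types. For comparison, the median over the whole table lay between 13.6 and 18.0 in the 9 libraries. In no library did a bright even region fall below that library's table median. The lowest value of any such region in pregnancy was 23.7, 28.8 and 33.0 in ER+ luminal, ER- luminal and basal cells.

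**Figure D1:**
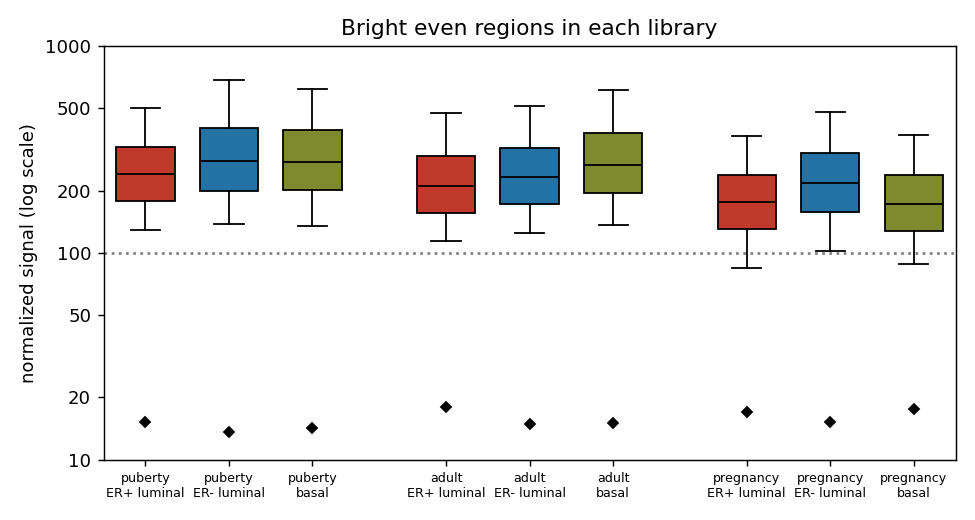
Normalized signal (log scale) of the 7442 bright even regions in each of the 9 libraries. Boxes give the median and quartiles, whiskers the 5th and 95th percentiles over regions, black diamonds the median of all 124860 regions, and the dotted line the floor of 100 that applied to the puberty and adult libraries. Each pregnancy box sits lower than those of the same cell type at the earlier stages, with medians of 176, 217 and 172, and stay far above the diamonds.

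Few in number, these regions took a large part of the reads. They held 33.3%, 39.8% and 39.4% of the reads in regions of the ER+ luminal, ER- luminal and basal puberty libraries. Their share was 31.5%, 35.8% and 36.3% in adults and 32.5%, 35.1% and 29.9% in pregnancy. The mean share over cell types was 37.5% ± 3.61 at puberty, 34.5% ± 2.65 in adults and 32.5% ± 2.64 in pregnancy (SD, n = 3 libraries of unlike cell types). The ranges of the 3 stages overlapped. The median bright even region stood at the 95.8th to 96.5th percentile of the table in each of the 9 libraries. The rule sets this for the 6 earlier ones, and a set of 5.96% of all regions leaves little room above it.

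The members spanned a range of brightness. The dimmest by the mean of the 6 libraries had a signal of 110, 115 and 117 in ER+ luminal, ER- luminal and basal cells at puberty, 113, 111 and 113 in adults and 94.9, 97.1 and 110 in pregnancy. It was even at all 3 stages, on 50 to 64 reads in the pregnancy libraries. The member in the middle of the order had 324, 303 and 221 at puberty, 245, 230 and 182 in adults and 239, 256 and 141 in pregnancy. The basal library was its lowest at each stage. The brightest had 1079, 1532 and 1367 at puberty, 938, 1079 and 1417 in adults and 695, 957 and 702 in pregnancy. Its 3 pregnancy values averaged 785 ± 149 and the 6 earlier ones 1235 ± 235 (SD, n = 3 and 6 libraries). The earlier values picked this region as the highest, which favours a lower value elsewhere, so no test is given.

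The rule cuts through a continuous range at both thresholds. The member nearest the floor had a lowest value of 100.06, in adult ER+ luminal cells, while the nearest even region left out had 99.9, in pubertal ER+ luminal cells. Pregnancy values were 158, 132 and 85.8 in the first and 91.5, 78.9 and 74.8 in the second, in ER+ luminal, ER- luminal and basal cells. The member nearest the limit of 2-fold had a ratio of highest to lowest of 1.9999, and the nearest bright region left out had 2.0002. Their pregnancy values were 161, 193 and 185 for the member and 161, 155 and 108 for the region left out.

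Evenness between cell types carried over to the pregnancy libraries, which were held out. There 6868 of 7442 bright even regions, or 92.3% (exact 95% interval 91.7% to 92.9%, counting error only), stayed under 2-fold between the highest and the lowest cell type. The median ratio of highest to lowest was 1.44, and 5% of regions exceeded 2.12. All 3 pregnancy values were at least 100 in 6259 regions, or 84.1%, against 6.61% of the table. Over all regions 36.6% were under 2-fold in pregnancy, and among the 1847 regions as bright but not even at the earlier stages (bright uneven regions) 76.1% were. Among 2411 even regions with a lowest earlier value of 50 to under 100 (dimmer even regions) the share was 81.6%. All 3 pregnancy values were at least 100 in 72.3% of bright uneven and 5.23% of dimmer even regions. Each cell type had 1 pregnancy library, so these shares have no replicate test.

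Regions were also chosen on 1 stage alone, so that both later comparisons used values outside the choice. The same floor and fold applied to the 3 puberty libraries kept 9570 regions, the 7442 included. Of these, 89.6% were under 2-fold in pregnancy and 93.5% in adults. The pregnancy libraries were shallower, and after all libraries had been thinned to 2186941 reads the shares were 88.8% in pregnancy and 89.7% in adults. Chosen on the 3 adult libraries alone, 9415 regions were kept, of which 88.8% were under 2-fold in pregnancy and 90.2% at puberty. At equal depth these shares were 88.1% in pregnancy and 86.8% at puberty. At equal depth the pregnancy libraries thus gave shares within 1 to 2 percentage points of the other held-out stage, below it in one choice and above it in the other.

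**Figure D2:**
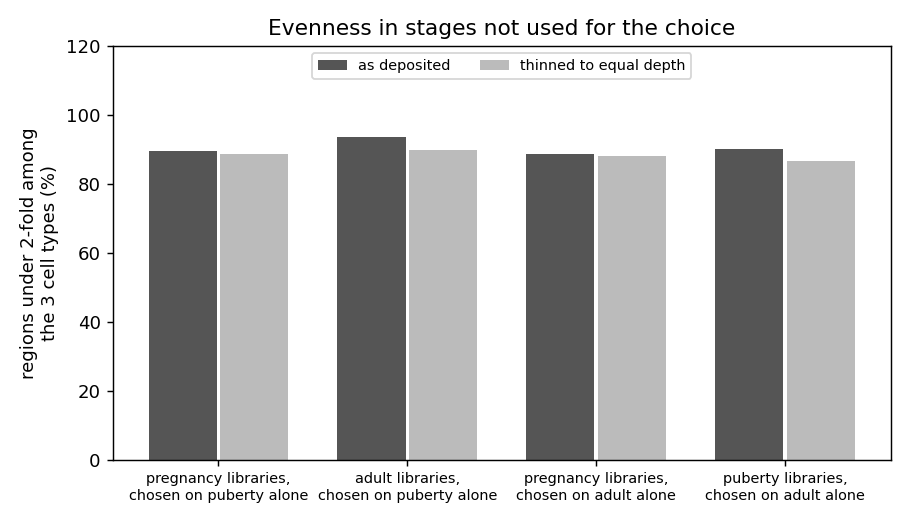
Percentage of regions under 2-fold between the 3 cell types in stages that did not choose them, for 9570 regions chosen on the puberty libraries and 9415 chosen on the adult libraries. Dark bars use the deposited values and light bars reads thinned to equal depth. At equal depth the shares were 88.8% in pregnancy and 89.7% in adults for the first choice, and 88.1% in pregnancy and 86.8% at puberty for the second.

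Where evenness was lost in pregnancy, ER- luminal cells were most often highest and basal cells most often lowest on the deposited scale, as over the whole set. In 574 bright even regions the pregnancy libraries were at least 2-fold apart. The highest value was in ER- luminal cells in 431 of these, or 75.1%, and the lowest was in basal cells in 372, or 64.8%. Only 3 regions were at least 4-fold apart, and in each of these the highest value was basal and the lowest ER+ luminal. The widest ratio was 4.84, in a region with 25.4, 95.6 and 123 in ER+ luminal, ER- luminal and basal pregnancy cells from 15, 63 and 56 reads (95% counting interval of the ratio 2.70 to 9.22, the pair being picked as the extremes). Its earlier values were 120, 214 and 110 at puberty and 178, 126 and 174 in adults. In the most even region the 3 pregnancy values were 154, 155 and 154.

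Between ER- luminal and basal cells in pregnancy 349 bright even regions were at least 2-fold higher and 20 were at least 2-fold lower in ER- luminal cells. These were 4.69% and 0.269% of them, where the table had 15.4% and 19.7%. The exact 95% counting interval of the ratio lay wholly beyond 2-fold in 20 of the 349 and 2 of the 20. Between ER+ and ER- luminal cells 7 were at least 2-fold higher and 113 at least 2-fold lower in ER+ cells, against 18.8% and 15.2% of the table. Between ER+ luminal and basal cells the numbers were 63 higher and 104 lower in ER+ luminal cells, against 18.8% and 19.6% of the table. Each of these counts compares single libraries and depends on their scale. After quantile normalization 43, 280 and 212 regions were at least 2-fold apart between ER+ and ER- luminal, ER+ luminal and basal, and ER- luminal and basal cells, against 120, 167 and 369 as deposited. On the deposited scale all 3 pairs had smaller shares than the table, in which most regions are dim and rest on few reads. Bright uneven and dimmer even regions, defined above, also lay below the table. For ER- luminal over basal cells 8.55% and 5.60% of them were higher and 2.98% and 2.12% lower. For ER+ over ER- luminal cells 1.19% and 0.995% were higher and 9.04% and 5.43% lower. For ER+ luminal over basal cells 2.06% and 2.82% were higher and 8.45% and 6.14% lower. No shares of the table were made after quantile normalization.

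Which cell type was brightest differed between stages and between scales. On the deposited scale, at puberty the highest value was in ER- luminal cells in 48.5% and in basal cells in 42.2% of bright even regions. In adults it was basal in 73.0%, and in pregnancy ER- luminal in 71.6%. ER+ luminal cells held the highest value in 9.33%, 9.74% and 10.6% of regions at puberty, in adults and in pregnancy. The median log2 difference of ER- luminal minus basal signal was 0.03 at puberty, -0.21 in adults and 0.33 in pregnancy. For ER+ luminal minus basal it was -0.24, -0.35 and 0.03, and for ER+ minus ER- luminal -0.25, -0.14 and -0.31. These small shifts rest on the scale of each library. After quantile normalization, which gives all libraries one distribution, the ER- luminal minus basal medians were -0.01, 0.03 and 0.08, the ER+ luminal minus basal medians -0.09, -0.06 and 0.12, and the ER+ minus ER- luminal medians -0.08, -0.08 and 0.04. The sign of the last pair in pregnancy turned, as did those of ER- luminal minus basal at puberty and in adults. The highest puberty value was then in ER- luminal cells in 35.5% and in basal cells in 41.4% of regions. The highest adult value was in basal cells in 34.2% and in ER- luminal cells in 38.5%. The highest pregnancy value was in ER- luminal cells in 31.3% and in ER+ luminal cells in 40.1%, so the leading cell type turned at each stage.

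**Figure D3:**
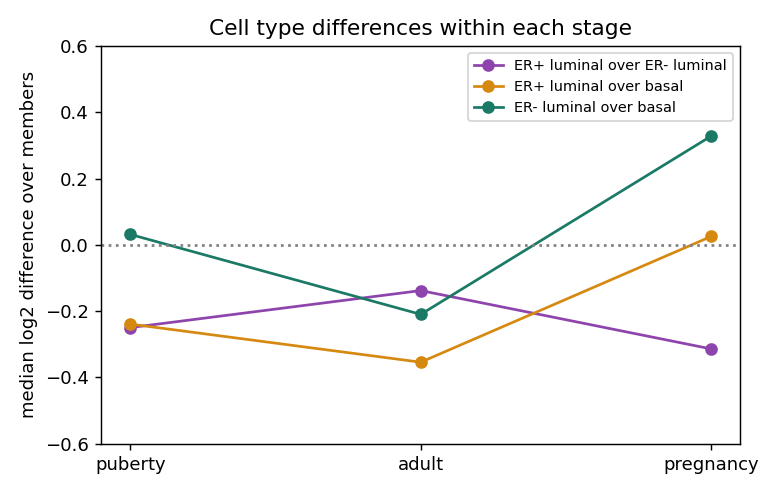
Median log2 difference between cell types over the 7442 bright even regions at each stage, from the deposited values. Each point compares 2 single libraries. The ER- luminal minus basal median was 0.33 in pregnancy and -0.21 in adults. After quantile normalization these medians were 0.08 and 0.03, so the adult one turned sign.

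The small differences between ER+ luminal and basal cells that the rule allowed were partly shared between puberty and adulthood and less so with pregnancy. The other pairs did not all follow this order. Across the 7442 regions, which share their libraries and depth and are not independent replicates, the log2 difference of ER+ luminal minus basal signal had a Pearson r of 0.59 between puberty and adults. It was -0.04 between puberty and pregnancy and 0.15 between adults and pregnancy. For ER- luminal minus basal the values were 0.31, 0.08 and 0.37, and for ER+ minus ER- luminal 0.31, 0.25 and 0.20, in the same order. The first of each 3 values lies within the libraries of the choice, whose range the rule cut to under 2-fold. At equal depth the ER+ luminal minus basal values were 0.44, -0.04 and 0.13, so the order did not turn with depth. Bright uneven regions, where differences were not cut, had 0.85, 0.20 and 0.34 for that pair in the deposited values.

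The order of regions by brightness was largely kept. Its coefficients rank signal levels, while those above correlate differences between cell types, which the rule had cut, so the values are not set against each other. Across bright even regions Spearman's rho was 0.92 between the mean log2 signal of the pregnancy and of the earlier libraries, and 0.75 across bright uneven regions. Within a cell type rho between pregnancy and adult values was 0.81, 0.88 and 0.84 in ER+ luminal, ER- luminal and basal cells. Between adult and puberty values, both of which chose the regions, it was 0.90, 0.93 and 0.91. These are descriptions across regions, and the lower depth of the pregnancy libraries enters the first 3.

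On the deposited scale bright even regions were dimmer in pregnancy than before. Signal was set against the mean of the adult and puberty libraries of the same cell type, on log2(signal + 1). The median difference was -0.35 in ER+ luminal cells (quartiles -0.57 to -0.15), -0.25 in ER- luminal cells (-0.45 to -0.04) and -0.67 in basal cells (-0.88 to -0.44). These correspond to ratios of 0.786, 0.840 and 0.630. Over the whole table the medians were -0.03, 0.07 and 0.04. In 5396 bright even regions, or 72.5%, the pregnancy value was below the earlier mean in each of the 3 cell types, and in 22 it was above in each. Over the table these shares were 18.9% and 19.5%, and 62.0% of bright uneven regions were lower in each cell type. The earlier libraries chose the regions for being bright, so the earlier side of this difference is not independent of the rule.

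No bright even region was at least 2-fold higher in pregnancy in any cell type, where 25%, 16.6% and 17% of the table were in ER+ luminal, ER- luminal and basal cells. Such rises were also rare in bright uneven regions, 12, 9 and 2 of 1847, and in dimmer even regions, 2, 7 and 2 of 2411. The rule held the earlier side high, so the lack of rises is partly fixed by the choice. At least 2-fold lower were 411, 183 and 1161 bright even regions in ER+ luminal, ER- luminal and basal cells. They made up 5.52%, 2.46% and 15.6% of the set, against 20.6%, 10.5% and 11.7% of the table. The shares of bright uneven regions were 20.4%, 9.37% and 23.1%. In all 3 cell types 48 bright even regions were at least 2-fold lower, a count that was not made over the table. A value under 50 in some pregnancy library occurred in 56 bright even regions, or 0.752%, and 1 was under 50 in all 3. Such a value occurred 37, 10 and 21 times in ER+ luminal, ER- luminal and basal cells. The share was 3.52% in bright uneven regions, 27.9% in dimmer even regions and 87.2% over the table.

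**Figure D4:**
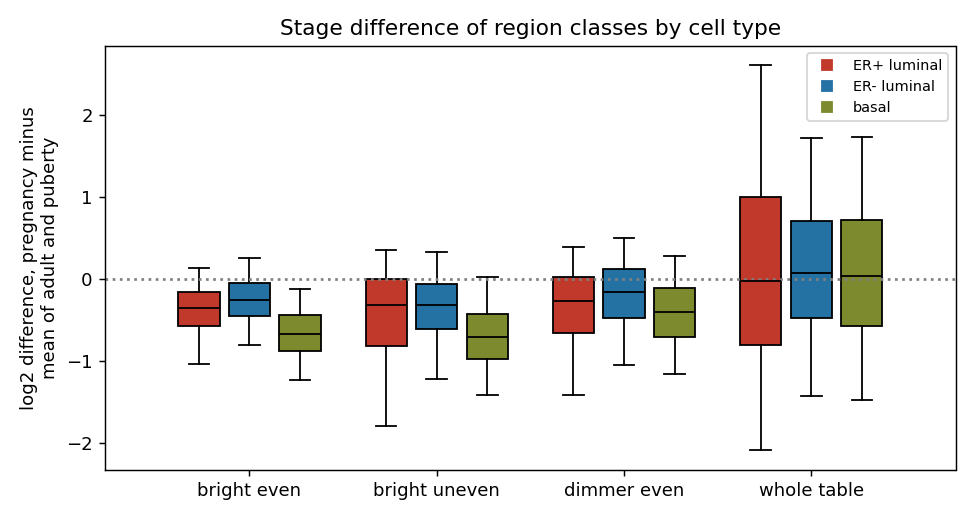
Log2 difference of pregnancy minus the mean of the adult and puberty libraries in each cell type, for bright even, bright uneven and dimmer even regions and for the whole table. Boxes give median and quartiles and whiskers the 5th and 95th percentiles over regions. The bright even medians were -0.35, -0.25 and -0.67 in ER+ luminal, ER- luminal and basal cells, near those of bright uneven regions at -0.31, -0.32 and -0.70.

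The stage difference was tested with limma over all 124860 regions, with cell type and stage as additive terms. Its error is how far single libraries lie from additivity. With Benjamini-Hochberg adjustment at 0.05, 1821 of 7442 bright even regions, or 24.5%, fell in pregnancy, where 4.83% of the table was called lower. None was called higher, where 2.06% of the table was. The rule held the 6 earlier values high and close together, and they give both the earlier mean and part of the error of the fit. The shares are therefore given side by side with nothing read from their difference. At an unadjusted p under 0.05, 4314 were lower and 2 higher, a count not made over the table. With edgeR and DESeq2 on recovered reads 0 were called higher, where 1.21% and 2.24% of the table were. Each called 15.1% of bright even regions lower, where 2.86% and 3.83% of the table were. The rule held the earlier values high in those fits too. In limma the median log2 difference was -0.43 over bright even regions, -0.68 over the called ones and 0.05 over the table. Bright uneven regions were called lower in 28.0% of cases (517 of 1847) and dimmer even regions in 8.46% (204 of 2411), beside the 24.5% of bright even regions. The 1821 calls became 851, 479, 901, 667, 733 and 1001 when the library of ER+ luminal cells at puberty, ER- luminal cells at puberty, adult ER+ luminal cells, adult basal cells, ER+ luminal cells in pregnancy or ER- luminal cells in pregnancy was left out. These were 11.4%, 6.44%, 12.1%, 8.96%, 9.85% and 13.5% of bright even regions. The shares of the table called lower fell as well, to 2.22%, 1.53%, 2.93%, 1.73%, 2.46% and 2.76%. After quantile normalization 62 were called higher and 165 lower, or 0.833% and 2.22%, where 1.99% and 2.66% of the table were, and the median difference was 0.02. Per cell type that median was then 0.13, 0.01 and -0.06 in ER+ luminal, ER- luminal and basal cells, so the fall of the set was not seen on that scale.

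The calls were also counted by brightness. The bright even regions were put in 4 groups of equal size by their mean over the 6 earlier libraries. That mean is also the side subtracted in the difference, so a larger fall in brighter groups is partly fixed by the grouping, and the values are a description. In the dimmest group, with means of 113 to 186, 176 of 1861 or 9.46% were called lower in pregnancy. In the next groups 15.5% and 24.1% were, and in the brightest, with means of 350 to 1235, 908 of 1861 or 48.8%. The median log2 differences of the dimmest group were -0.30, -0.19 and -0.54 in ER+ luminal, ER- luminal and basal cells, and those of the brightest -0.40, -0.32 and -0.76. Brighter regions also rest on more reads, and the share of regions under 2-fold in pregnancy likewise ran from 88.8% in the dimmest to 96.5% in the brightest group. The part of depth in these trends was not tested.

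**Figure D5:**
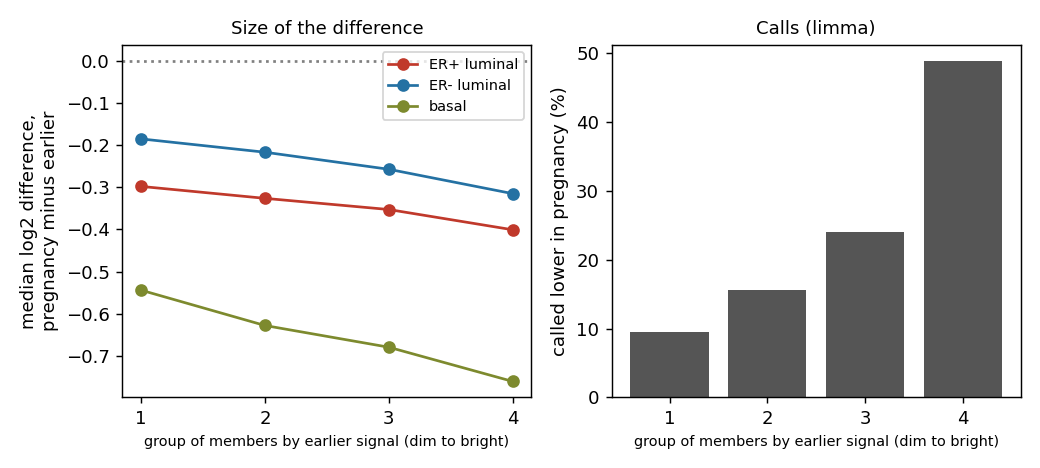
Bright even regions in 4 groups by their mean signal in the 6 earlier libraries, dimmest to brightest. On the left, the median log2 difference of pregnancy minus earlier libraries in each cell type, and on the right the percentage called lower in pregnancy by limma. Calls ran from 9.46% to 48.8% and the basal median from -0.54 to -0.76, in groups cut on the side that is subtracted.

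Comparisons in which neither side chose the regions gave the same direction on the deposited scale. The libraries that chose each set still entered the error of the fit, which used all 9 libraries. Of the 9570 regions chosen at puberty, 525 or 5.49% fell in pregnancy relative to adults and 2 rose, where 1.67% of the table was called lower and 0.196% higher (limma, adjusted p under 0.05). Their median log2 difference was -0.33, against 0.03 over the table. Of the 1847 bright uneven regions, which were bright at both earlier stages by choice, 12.5% were called lower and 0.325% higher in this comparison. The 527 calls became 279, 71, 8, 303 and 192 without the ER- luminal puberty, ER+ luminal adult, basal adult, ER+ luminal pregnancy or ER- luminal pregnancy library. Called lower were then 2.89%, 0.721%, 0.0627%, 3.15% and 1.99% of the regions, and 0.918%, 0.286%, 0.0232%, 1.22% and 0.716% of the table. After quantile normalization 40 were higher and 97 lower, or 0.418% and 1.01%, against 0.276% and 0.7% of the table. The median difference of these regions was then 0.05, against 0.03 over the table, so their fall was not seen on that scale. Of the 9415 regions chosen in adults, 2015 or 21.4% fell in pregnancy relative to puberty and 13 rose, where 3.5% of the table was called lower and 1.83% higher. Their median was -0.51, against 0.05 over the table. Bright uneven regions were here called lower in 24.5% and higher in 0.379% of cases, so the falls were not particular to even regions. The 2028 calls became 115, 26, 945 and 1136 when the library of ER+ luminal cells at puberty, ER- luminal cells at puberty, ER+ luminal cells in pregnancy or ER- luminal cells in pregnancy was left out. Called lower were then 1.19%, 0.255%, 9.98% and 12% of the regions, and 0.18%, 0.0408%, 1.99% and 2.05% of the table. After quantile normalization 42 were higher and 175 lower, or 0.446% and 1.86%, against 1.07% and 1.2% of the table. The median difference was then 0.01, as it was over the table. Both comparisons use the same 3 pregnancy libraries. Neither called any of the 7442 bright even regions higher. For those regions the rule had held the earlier side of both comparisons high, so that result is partly fixed by the choice.

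The largest called falls were found in a pair of regions that were low in all 3 pregnancy libraries. Region merged74450 had 145, 145 and 101 in ER+ luminal, ER- luminal and basal cells at puberty and 121, 110 and 139 in adults. In pregnancy it had 23.7, 28.8 and 44.0, from 14, 19 and 20 reads. The pregnancy values, with a mean of 32.2 ± 10.5, did not overlap the earlier ones, with a mean of 127 ± 19.0 (SD, n = 3 and 6 libraries; log2 difference -1.98, SE 0.27, limma adjusted p = 0.000273). Region merged59018 had 282, 344 and 193 at puberty, 375, 233 and 236 in adults and 71.2, 77.4 and 66.0 in pregnancy, from 42, 51 and 30 reads there. Its pregnancy mean of 71.5 ± 5.69 lay well below the earlier mean of 277 ± 70.5, again with no overlap (SD, n = 3 and 6 libraries; log2 difference -1.91, SE 0.21, limma adjusted p = 2e-05). The choice of bright even regions had held the 6 earlier values of both regions high and close together. Both were then picked as the largest falls. The lack of overlap, the earlier SDs and the adjusted p-values, under the alternatives too, are therefore partly fixed by the choice. They serve as a description only. Both regions were also called after quantile normalization, at -1.75 and -1.51 with adjusted p = 0.00179 and 0.00023 (limma). Over 21 alternatives the first ran from -2.26 to -1.58 and was called in 19, with adjusted p from 2.66e-06 to 0.13, and the second ran from -2.02 to -1.50 and was called in 20, with adjusted p from 1.48e-09 to 0.13. No region rose by the same rule, so none is named for a rise.

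Apart from the shift that the set shared, most members kept their place. With each library divided by the median signal of its own bright even regions, most had a pregnancy value within 1.5-fold of the earlier mean. These were 90.8%, 92.4% and 91.7% of the set in ER+ luminal, ER- luminal and basal cells. On that scale 161, 86 and 23 regions were at least 2-fold lower in pregnancy, and 2, 3 and 16 at least 2-fold higher, in the same order. These shares and counts were not made for other regions on this scale. The rule had also held the earlier values under 2-fold apart, so they do not set the members apart from other regions. Limma then called 56 of 7442 higher and 258 lower, or 0.752% and 3.47%, where 6.07% and 1.24% of the table were, while the median of the whole table was 0.42, against 0.05 on the deposited scale. This scale was chosen after the values had been seen, and it sets the median of the set to nearly no change by construction.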

How the data were processed

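Bowtie2 2.2.6 and MACS2 2.1.0.20151222 are named, with Picard, SAMtools and the build GRCm38 (mm10), per the submitters' processing notes. Region merging, counting and any shift for the Tn5 cut are not given in the sources used here. For each region and library the authors deposited 1 normalized signal value. Within 0.02 reads, 100% of the values were whole multiples of 1 step per library, 0.526 to 2.20 signal units. These steps gave 2186941 to 11328189 reads in regions, and 2186941, 2641254 and 3418164 at pregnancy in basal, ER+ luminal and ER- luminal cells. Intervals cover counting error only.

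Values were fitted as log2(signal + 1) with limma 3.58.1 in R 4.3.3 (additive cell type and stage, 4 residual degrees of freedom, variance trend, no filter). Differences of low regions are understated on this scale. The p-values test the stage difference against departure from additivity as the error, not against a spread between mice. edgeR 4.0.16 and DESeq2 1.42.0 were alternatives on recovered reads. Thinning was 1 seeded draw. The 2 named regions have the lowest log2 differences among called ones. The set, the tests and the alternatives were chosen with earlier results of these data known.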

Additional observations from a re-analysis of the deposited data

How the results depend on the processing

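Counts of calls moved with the model. At an adjusted p under 0.05 more regions were called lower than higher under each alternative that gave calls. The direction was not kept on every scale. After quantile normalization 582 bright even regions were higher and 617 lower at an unadjusted p under 0.05 (limma). Of the regions chosen at puberty 1033 were then higher and 751 lower, and of those chosen in adults 530 and 829. Calls among the 7442 bright even regions (1821) became 1062 at equal depth, 1200 with library weights, 1125 with edgeR, 1121 with DESeq2, 1052 in the luminal libraries alone, 6 with cell type left out and 0 without a variance trend, where 826 had an unadjusted p under 0.05 (limma). In the order from equal depth to cell type left out, these were 14.3%, 16.1%, 15.1%, 15.1%, 14.1% and 0.0806% of the set. The table had 2.73%, 3.83%, 2.86%, 3.83%, 4.02% and 0.00721% called lower. Unadjusted p-values were not counted over the table. The 1821 calls became 227 after quantile normalization, 314 on the scale of the set's own median and 494 of the 2258 regions under 1.5-fold (21.9%, against 24.5%). With a floor of 200, 1328 of 3547 or 37.4% were called lower, against 4.83% of the table. For regions chosen at puberty (527) the counts were 338 with a pseudocount of 0.25, 318 at equal depth, 230 with edgeR, 201 in luminal libraries alone, 137 after quantile normalization, 74 on the set's own scale, and 0 without the trend or without cell type, with 512 lower at an unadjusted p under 0.05 in the former (limma). Under the first 4 of these, 3.51%, 3.3%, 2.38% and 2.05% were called lower, against 1.1%, 0.926%, 0.736% and 0.798% of the table. On the set's own scale 0.658% were, against 0.227%. For regions chosen in adults (2028) the counts were 1173 at equal depth, 217 after quantile normalization, 328 on the set's own scale, 0 without the trend and 3 without cell type. Called lower at equal depth were 12.3%, against 1.89% of the table, and on the set's own scale 2.61%, against 0.647%. Leaving out 1 library gave 479 to 2176, 8 to 781 and 26 to 2087 calls in the 3 comparisons.

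The median stage differences turned to 0.128 in ER+ luminal and 0.00745 in ER- luminal and shrank to -0.0592 in basal cells after quantile normalization, and were -0.00463, -0.0286 and -0.00638 on the set's own scale. The share under 2-fold in pregnancy (92.3%) was 89.7% and 94.95% with floors of 50 and 200, 93.6% and 89.9% with limits of 1.5-fold and 3-fold, 94.3% after quantile normalization, 91.4% at equal depth and 95.7% on the set's own scale. Regions at least 2-fold apart in pregnancy, 120, 167 and 369 for ER+ over ER- luminal, ER+ luminal over basal and ER- luminal over basal, became 275, 383 and 555 with a floor of 50, 21, 39 and 133 with a floor of 200, and 19, 42 and 102 with a limit of 1.5-fold. They became 43, 280 and 212 after quantile normalization, 267 and 314 for the first 2 pairs with a limit of 3-fold, and 46 and 162 for ER+ over ER- luminal and ER- luminal over basal on the set's own scale. The causes were not tested. The luminal libraries alone and the set's own scale were chosen after seeing the data. No paired analysis was possible because the labels give no replicate numbers and each cell type and stage has 1 library; cell type is a term of the model. The shallowest library, basal pregnancy, limits single regions there to a median of 78 reads.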

Other observations

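The region numbers of the table carry no stated order. Of the 7442 bright even regions, 871 or 11.7% were followed by the next number as a further bright even region, against 5.96% of the table being such regions.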
